A study of Bos taurus with 24 samples.

Results

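The 10 major heat shock genes HSPA1A, HSPA8, HSPA5, HSPA9, HSP90AA1, HSP90AB1, HSPD1, HSPE1, HSPB1 and HSF1 were selected by symbol from the 11306 genes of the deposited bovine oocyte table. Each of the 10 was listed once, and all 10 were among the 9526 genes with a value over 0.1 FPKM in at least 1 library. FPKM are fragment counts divided by transcript length and by the mapped fragments of the library, so that levels can be compared between genes. The deposited values also sum to 86768.1 or 86768.2 in every library, so they appear to be scaled to a fixed total. The 24 libraries comprised 6 of germinal vesicle (GV) oocytes and 6 of metaphase II (MII) oocytes from May, called spring in the study, and the same numbers from July, called summer. The oocytes came from non-lactating, non-pregnant crossbred Angus-based cows kept under the same management in both seasons, and each library was a pool of 4 oocytes of 1 animal. GV oocytes were taken from follicles, and MII oocytes had been matured in vitro inside their cumulus cells. The cumulus cells were stripped from both stages before lysis. The sample labels speak of single cells where the study describes pools, and they do not say which libraries came from the same cow, so the p values measure the spread between libraries.

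Heat shock proteins are chaperones that bind unfolded proteins and help them fold, refold or be removed. In the classical heat shock response, the factor HSF1 binds heat shock elements and raises transcription of inducible chaperone genes such as HSPA1A and HSPB1, whereas HSPA8 and HSP90AB1 are made in unstressed cells as well. A full-grown oocyte transcribes little, and its RNA levels during maturation depend largely on stored RNA and its loss.

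All positions are those of the deposited table on UMD3.1.1. HSPA1A lies on chromosome 23 at 27331772 to 27333871, HSPA8 on chromosome 15 at 34216280 to 34220706, HSPA5 on chromosome 11 at 96115225 to 96119267, and HSPA9 on chromosome 7 at 51506216 to 51521516. HSP90AA1 lies on chromosome 21 at 68595871 to 68601238, and HSP90AB1 on chromosome 23 at 17867556 to 17873439. HSPD1 (chromosome 2, 86438979 to 86449373, minus strand) and HSPE1 (86449525 to 86451566, plus strand) are neighbors that point away from each other across 151 bases. HSPB1 lies on chromosome 25 at 34858438 to 34861036 and HSF1 on chromosome 14 at 1806081 to 1825794. HSPA1A belongs to a family with near-identical copies, and reads shared between them could have been placed on either copy, so its level is less certain than those of the other genes.

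Several libraries stood apart in these genes. The 3 libraries with the lowest mapping rate in the study's alignment summary were replicate 6 of GV May, replicate 2 of GV July and replicate 6 of MII May. Their relative depth, recovered from the steps between low values and set to 1 in replicate 1 of GV May, was 0.0565, 0.393 and 0.149, against 0.542 to 6.51 in the other 21 libraries. The 10 genes held 1.84%, 0.993% and 0.957% of the summed FPKM of these 3 libraries and 0.271% to 0.752% of that of the others. The highest share among the others belonged to replicate 6 of MII July, which together with replicate 4 of MII July completes the 5 libraries of lowest mapping rate. Each comparison was therefore also fitted without the 3 libraries, and values from that fit are given for most results. A value given alone comes from all libraries of its comparison. The part of the low depth and mapping rate in the results was not tested.

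**Figure D1:**
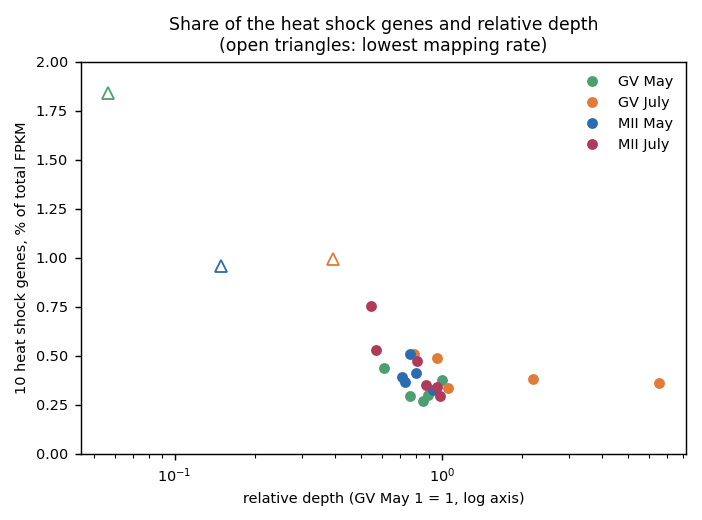
Summed FPKM of the 10 heat shock genes as a percentage of the total FPKM of a library (vertical axis) against relative depth (horizontal log axis, replicate 1 of GV May set to 1), 1 point per library. The 3 open triangles, libraries of the lowest mapping rate, lie at 0.957% or more and the 21 filled points at 0.752% or less.

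The labelled cell type was present in every library, where the summed level of 14 oocyte genes was between 857 and 2273 FPKM. The summed level of 22 cumulus cell genes ranged from 38.4 to 590 FPKM in GV May, 34.4 to 126 in GV July, 35.3 to 163 in MII May and 27.5 to 85.9 in MII July. The highest sum belonged to replicate 6 of GV May, where the keratin gene KRT18 stood at 392 FPKM. Of the 22 genes, 10 were highest of their group in that library, among them KRT8, PTGS2, SERPINE2, STAR and TNFAIP6, and 6 were listed at the lowest value of the table, 0.01, among them FST, AMH and CYP11A1. Replicate 2 of GV July and replicate 6 of MII May were each highest of their group in 9 of the 22. Of all 9526 genes tested, 44.4% were highest in replicate 6 of GV May, 52.8% in replicate 2 of GV July and 41% in replicate 6 of MII May. The counts of cumulus cell genes in these libraries were thus near or below that background. KRT18 was at 34.4 FPKM in replicate 2 of GV July and 70.8 in replicate 6 of MII May, and between 0.149 and 16.6 in the other 21 libraries. In replicate 3 of GV May it was the granulosa genes that were high, with FST at 20.3, AMH at 13.4 and INHA at 37.2 FPKM. The part of any remaining cumulus cells in the heat shock gene values was not tested. In pooled oocytes, fewer oocytes with a transcript and less of it per oocyte cannot be told apart.

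**Figure D2:**
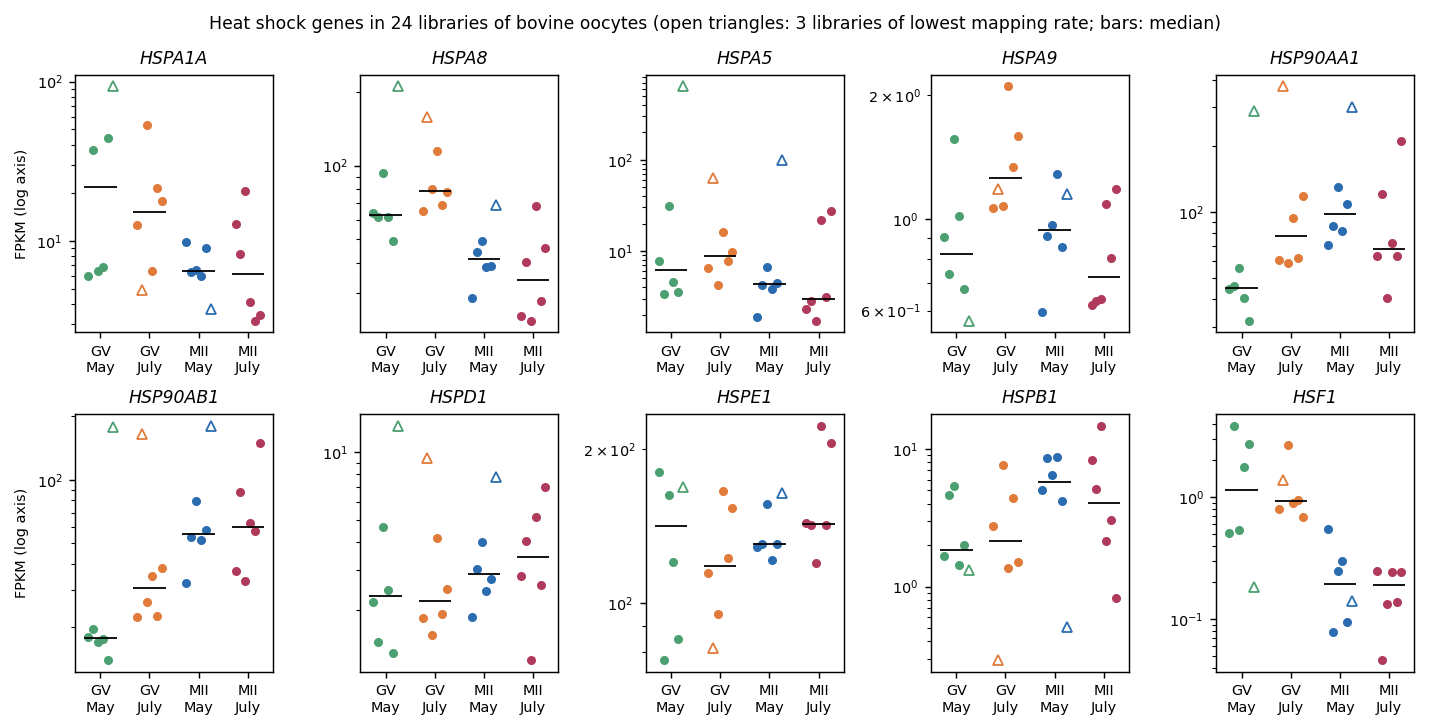
FPKM of the 10 heat shock genes (log axis) in the 24 libraries, 1 panel per gene and 6 points per group, with a bar at the median and open triangles for the 3 libraries of the lowest mapping rate. HSF1 in MII July, between 0.0463 and 0.248 FPKM, lies below every GV July library, and HSPA5 spans 1.72 to 641 FPKM over all libraries.

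The level of each gene was compared with those of the others on the FPKM scale. In the 12 GV libraries the order of mean FPKM was HSPE1 (127), HSP90AA1 (106), HSPA8 (92.3), HSPA5 (66.6), HSP90AB1 (47.9), HSPA1A (25.9), HSPD1 (3.88), HSPB1 (2.88), HSF1 (1.41) and HSPA9 (1.15). Of the 9 pairs of neighbors in that order, 4 differed within libraries in an exact sign-flip permutation test of their log2 levels at p under 0.05, 3 of them in the direction of the means. The other was HSPA5 and HSP90AB1 (exact p = 0.0112), where HSP90AB1 was the higher in 10 of 12 libraries although HSPA5 had the higher mean. The neighbors HSPE1 and HSP90AA1 (p = 0.0679), HSP90AA1 and HSPA8 (p = 0.447), HSP90AB1 and HSPA1A (p = 0.0903), HSPD1 and HSPB1 (p = 0.51) and HSF1 and HSPA9 (p = 0.893) did not differ beyond their spread in this exact test. The mean of HSPA5 thus rests on few libraries. Without replicate 6 of GV May and replicate 2 of GV July, HSPA5 moved from the fourth to the sixth place.

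In the 12 MII libraries the order of mean FPKM was HSPE1 (151), HSP90AA1 (113), HSP90AB1 (73.6), HSPA8 (41.5), HSPA5 (15), HSPA1A (7.80), HSPB1 (5.66), HSPD1 (3.73), HSPA9 (0.894) and HSF1 (0.205). Here 7 of the 9 neighbors differed in the exact sign-flip test. HSPA5 and HSPA1A (exact p = 0.814) and HSPB1 and HSPD1 (exact p = 0.638) did not differ beyond their spread. HSPE1, the mitochondrial co-chaperonin, had the highest mean of the 10 genes at both stages, and HSP90AB1 stood above HSPA8 in 11 of 12 MII libraries.

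The first question was whether the genes differed with season. None of the 10 genes passed an adjusted p under 0.05 in limma between July and May, in GV or in MII oocytes, and the background was the same, with 0% of the 9526 genes passing in GV and 0% in MII oocytes. At an unadjusted p under 0.05 none of the 10 passed in either stage, against 1.55% of all genes in GV oocytes and 2.11% in MII oocytes. In GV oocytes the 10 log2 differences of July minus May on the log2(FPKM + 1) scale had a median of -0.05, against 0.01 over all genes. The median of the 10 was 0.25 without the 3 libraries and 0.29 without replicate 6 of GV May alone, against 0.00 and 0.03 over all genes, so that its sign turned with 1 library. In MII oocytes their median was -0.08, against -0.01 over all genes. The standard error of a log2 difference was largest for HSPA5, 1.11 in GV and 0.89 in MII oocytes (0.54 and 0.64 without the 3 libraries), so for that gene only very large season differences were detectable.

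The second question was how the RNA levels differed between GV oocytes and MII oocytes of the same month. As the values appear to be scaled to a fixed total, a rise or fall between stages is in a gene's share of the captured mRNA. The amount of RNA per oocyte was not measured, and changes in amount, in capture and in other RNA cannot be told apart. In July, 2 of the 10 genes passed an adjusted p under 0.05, HSPA8 and HSF1, and both fell. The background there was 23.1% of all genes passing as lower and 7.67% as higher in MII oocytes. In May, none of the 10 passed, against 14.7% lower and 9.45% higher of all genes, and 4 had an unadjusted p under 0.05, against 38.8% of all genes (3 in July, against 42.1%). Without the 3 libraries, 5 of the 10 passed in May, with HSP90AA1, HSP90AB1 and HSPB1 higher and HSPA8 and HSF1 lower, against 19.3% of all genes higher and 22.6% lower. Without them 4 passed in July, with HSPA8, HSPA9 and HSF1 lower and HSP90AB1 higher, against 26.2% lower and 13.1% higher. Genes were also called by an unadjusted limma p under 0.05 together with a fold change over 2, taken on the log2(FPKM + 1) scale. This called 2 of the 10 in May, HSPA1A and HSP90AB1, and 1 in July, HSPA8, against 11.8% and 11.5% of all genes. The added 1 FPKM shrinks the fold change of low genes. With 0.1 FPKM added instead, 3 of the 10 were called in May and 2 in July.

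The plot of log2 differences shows the 4 comparisons side by side. May and July are separate comparisons, and a gene that passed in 1 month only was not thereby shown to differ between months. That difference was tested directly as the season difference in the change from GV to MII, where 0 of the 10 genes and 0% of all genes passed an adjusted p under 0.05 in limma. At an unadjusted p under 0.05, 1 of the 10 passed, HSPA9, against 1.8% of all genes. In the fit without the 3 libraries it was instead HSP90AA1 (-0.99 ± 0.46; limma unadjusted p = 0.0451, adjusted p = 1), against 2.9% of all genes.

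**Figure D3:**
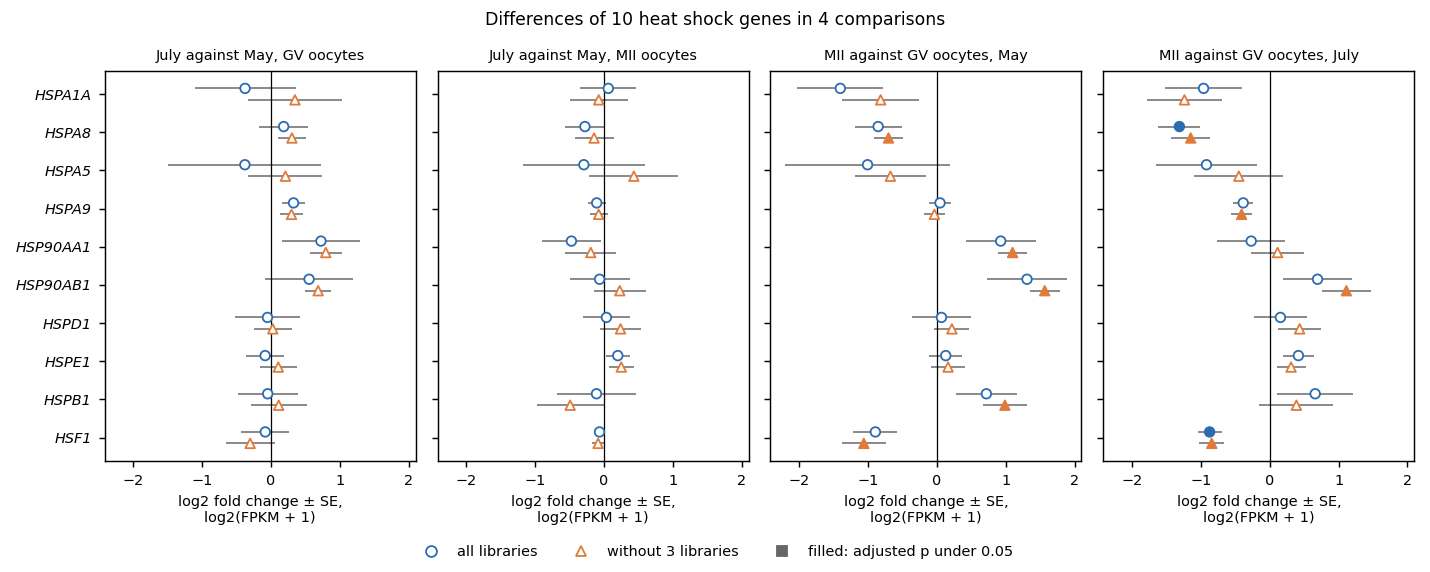
Log2 fold change on the log2(FPKM + 1) scale with its standard error (horizontal axis) for each heat shock gene in 4 comparisons, with circles for the 12 libraries of a comparison and triangles for the fit without the 3 libraries of lowest mapping rate. Filled symbols passed an adjusted p under 0.05, which were HSPA8 and HSF1 in July in the fit of all libraries, and no symbol is filled in either season comparison.

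HSF1 encodes the transcription factor of the heat shock response. Its level in GV May ran from 0.183 to 3.86 FPKM with a median of 1.15, and in GV July from 0.686 to 2.65 with a median of 0.924. In MII May it ran from 0.0786 to 0.549 FPKM with a median of 0.194, and in MII July from 0.0463 to 0.248 with a median of 0.190. All 6 MII July libraries lay below all 6 GV July libraries, as did 14.7% of the 9526 genes. In July HSF1 fell by 0.87 ± 0.17 on the log2(FPKM + 1) scale (SE, n = 6 and 6; limma adjusted p = 0.0026; exact permutation p = 0.00216, which no comparison of 6 with 6 libraries can go below). The group means were 1.23 ± 0.739 FPKM in GV July and 0.175 ± 0.0829 in MII July (SD, n = 6 each), a larger fold than the log2(FPKM + 1) scale shows at such low levels. In May its log2 difference was -0.89 ± 0.32 (limma adjusted p = 0.057; exact p = 0.0216).

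The May groups of HSF1 overlapped, with replicate 1 of MII May at 0.549 FPKM above replicates 1, 3 and 6 of GV May at 0.504, 0.540 and 0.183 FPKM. The value of replicate 6 rested on 2 counting steps, the smallest amount by which the values of HSF1 move in that library, against a median of 157 steps over the 12 GV libraries. Without the 3 libraries the May difference was -1.06 ± 0.32 and passed in limma (adjusted p = 0.0228), although the groups still overlapped, and the July difference was -0.84 ± 0.18 (adjusted p = 0.00391). The season difference of HSF1 was -0.08 ± 0.35 in GV oocytes (-0.30 ± 0.36 without the 3 libraries) and -0.06 ± 0.09 in MII oocytes, and the change over maturation differed between the months by 0.02 ± 0.37 (exact permutation p = 0.961).

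HSPA8 encodes the constitutive cytosolic HSP70, which folds new proteins and uncoats clathrin vesicles. It ranged from 49.1 to 212 FPKM in GV May with a median of 62.7, and from 65.4 to 159 in GV July with a median of 79.0. In MII May it ranged from 28.7 to 68.9 FPKM with a median of 41.6, and in MII July from 23.2 to 68.4 with a median of 34.2. In July 5 of 6 MII libraries lay below the lowest GV library, and in May 4 of 6 did. HSPA8 fell in July by 1.31 ± 0.31 on the log2(FPKM + 1) scale (limma adjusted p = 0.00639; exact permutation p = 0.00433). Its May difference was -0.85 ± 0.34 (limma adjusted p = 0.084; exact p = 0.0238) and -0.70 ± 0.20 without the 3 libraries (adjusted p = 0.0201). Between the seasons it differed by 0.19 ± 0.35 in GV and by -0.27 ± 0.29 in MII oocytes (0.30 ± 0.21 and -0.14 ± 0.28 without the 3 libraries).

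HSPA1A encodes the inducible cytosolic HSP70, the gene most often read as a mark of heat shock. Its GV levels were spread widely, from 5.98 to 93.4 FPKM in May with a median of 21.9 and from 4.92 to 53.4 in July with a median of 15.3. In GV May they fell into 3 libraries at 5.98, 6.42 and 6.83 FPKM and 3 at 37.0, 44.5 and 93.4 FPKM. MII levels were lower and closer together, from 3.70 to 9.78 FPKM in May with a median of 6.45 and from 3.15 to 20.6 in July with a median of 6.19. The log2 difference of MII from GV was -1.40 ± 0.62 in May (limma unadjusted p = 0.0424, adjusted p = 0.115) and -0.96 ± 0.56 in July (adjusted p = 0.216), or -0.81 ± 0.56 and -1.24 ± 0.55 without the 3 libraries (adjusted p = 0.26 and 0.0942). July differed from May by -0.37 ± 0.73 in GV oocytes and by 0.07 ± 0.41 in MII oocytes, and without the 3 libraries these values turned to 0.35 ± 0.68 and -0.07 ± 0.42.

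HSPA1A and HSF1 were high together in some GV libraries and apart in others. Replicates 2 and 5 of GV May had 37.0 and 44.5 FPKM of HSPA1A with 3.86 and 2.74 FPKM of HSF1, and replicate 3 of GV July had the highest value of both in its group, 53.4 and 2.65 FPKM. Replicate 6 of GV May had the highest HSPA1A and the lowest HSF1 of all GV libraries, its HSF1 value resting on 2 counting steps. Replicate 2 of GV July had the lowest HSPA1A of its group, 4.92 FPKM, with the second highest HSF1, 1.39, and replicate 4 of GV May had 6.83 FPKM of HSPA1A with 1.76 of HSF1. Replicate 6 of GV May and replicate 2 of GV July are among the 3 libraries of lowest mapping rate. On the log2(FPKM + 1) scale the Pearson r of HSPA1A and HSF1 was 0.26 over the 12 GV libraries and 0.76 over the 10 without them. Over the same 10, the r of HSF1 with the other heat shock genes ran from -0.92 (HSPE1) to this 0.76. That of HSPA1A ran from -0.84 (HSPE1) to the same 0.76. Values as large thus occurred with other genes, and a link of HSPA1A to HSF1 was not tested. Over the 12 MII libraries the r of HSPA1A and HSF1 was 0.03.

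The compartment HSP70 genes are HSPA5, the chaperone of the endoplasmic reticulum also known as BiP, and HSPA9, the mitochondrial chaperone mortalin. HSPA5 had a median of 6.17 FPKM in GV May, 8.81 in GV July, 4.34 in MII May and 2.99 in MII July, but its highest values were 641, 63.4, 100.2 and 27.2 FPKM. The highest value lay in replicate 6 of GV May, replicate 2 of GV July, replicate 6 of MII May and replicate 6 of MII July, all among the 5 libraries of lowest mapping rate. Replicate 4 of MII July was also high at 21.6 FPKM, as was replicate 3 of GV May, the library with high granulosa genes, at 30.8. No comparison of HSPA5 passed with all libraries, the log2 differences of MII from GV being -1.0 ± 1.20 in May and -0.92 ± 0.73 in July. They were -0.67 ± 0.52 and -0.45 ± 0.65 without the 3 libraries, and neither passed (limma adjusted p = 0.315 and 0.602). Without the 5 libraries, a setting chosen after the data had been seen, the July difference was -1.40 ± 0.31 and passed (limma adjusted p = 0.00649). The season difference was -0.38 in GV and -0.29 in MII oocytes with all libraries and 0.21 and 0.44 without the 3, so that its sign turned in both stages.

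HSPA9 was low and narrow, from 0.567 to 1.56 FPKM in GV May, 1.07 to 2.10 in GV July, 0.595 to 1.29 in MII May and 0.618 to 1.18 in MII July. Its medians were 0.821, 1.26, 0.939 and 0.724 FPKM in that order, so that GV July was the highest group and overlapped with the others. In GV oocytes July exceeded May by 0.33 ± 0.17 on the log2(FPKM + 1) scale, which had an exact permutation p of 0.039 but a limma p of 0.0758 and an adjusted p of 1 (0.30 ± 0.16 and exact p = 0.0873 without the 3 libraries). MII oocytes differed from GV oocytes by -0.38 ± 0.15 in July (limma adjusted p = 0.0651; 0.0473 without the 3 libraries) and by 0.05 ± 0.16 in May (adjusted p = 0.833). The difference between these changes was -0.43 ± 0.20 (exact permutation p = 0.0245; limma unadjusted p = 0.0444, adjusted p = 1). Without the 3 libraries that difference was -0.37 ± 0.20 (limma unadjusted p = 0.0812).

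The cytosolic HSP90 genes HSP90AA1, the inducible form, and HSP90AB1, the constitutive form, encode chaperones of kinases and steroid receptors. HSP90AA1 ran from 31.9 to 289 FPKM in GV May (median 45.1), 58.3 to 375 in GV July (77.9), 70.8 to 303 in MII May (97.5) and 40.5 to 211 in MII July (67.8). HSP90AB1 ran from 14.0 to 178 FPKM in GV May (17.8), 22.4 to 166 in GV July (30.8), 32.5 to 181 in MII May (55.6) and 33.2 to 150 in MII July (59.8). For both genes the highest value of each group lay in 1 of the 5 libraries of lowest mapping rate.

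With all libraries, HSP90AB1 differed between MII and GV by 1.31 ± 0.59 in May (limma unadjusted p = 0.0432, adjusted p = 0.117) and by 0.69 ± 0.50 in July (adjusted p = 0.315). HSP90AA1 differed by 0.93 ± 0.51 in May (adjusted p = 0.194) and by -0.27 ± 0.49 in July (adjusted p = 0.71). Without the 3 libraries, all 5 MII May libraries lay above all 5 GV May libraries in both genes, as did 12.1% of all genes. The log2 differences in May were then 1.57 ± 0.22 for HSP90AB1 (limma adjusted p = 0.000543) and 1.10 ± 0.21 for HSP90AA1 (adjusted p = 0.00255). In July they were 1.11 ± 0.36 for HSP90AB1 (adjusted p = 0.0283) and 0.11 ± 0.38 for HSP90AA1 (adjusted p = 0.834).

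In GV oocytes without the 3 libraries, the HSP90 genes had the largest log2 season differences of the 10 genes. The 5 remaining GV July libraries, at 58.3 to 118 FPKM of HSP90AA1 and 22.4 to 38.2 of HSP90AB1, then lay above the 5 of GV May, at 31.9 to 55.5 and 14.0 to 19.7 FPKM. Over all genes, 0.661% were so separated with July higher, and 3.63% had an unadjusted p under 0.05. The log2 differences were 0.80 ± 0.24 for HSP90AA1 (limma unadjusted p = 0.00649) and 0.69 ± 0.19 for HSP90AB1 (limma unadjusted p = 0.00414), and the exact permutation p was 0.00794 for each, the smallest that 5 against 5 allow. The adjusted p was 1 for both, and with all 12 libraries the differences were 0.73 ± 0.57 and 0.55 ± 0.64 and the groups overlapped. In MII oocytes the season differences were -0.47 ± 0.43 for HSP90AA1 and -0.06 ± 0.44 for HSP90AB1 (-0.19 ± 0.37 and 0.23 ± 0.38 without the 3 libraries).

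The ratio of HSP90AA1 to HSP90AB1 within a library was much steadier than either level. It ran from 1.62 to 3.25 in GV May (median 2.32), 2.21 to 3.1 in GV July (2.69), 1.58 to 2.17 in MII May (1.66) and 1.09 to 1.71 in MII July (1.30). All 6 ratios of MII July lay below all 6 of GV July. Of single genes, 14.7% were so separated as lower in that comparison. The share of all gene pairs with separated ratios was not measured, so the separation was not shown to be particular to this pair. On the log2 scale with 1 FPKM added to each gene, the ratio fell from GV to MII in July by 0.96 ± 0.12 (exact permutation p = 0.00216, adjusted over 20 ratio tests 0.0433).

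In May the log2 ratio differed between MII and GV by -0.38 ± 0.14 (exact p = 0.0216, adjusted over the 20 tests 0.108). The change in July differed from that in May by -0.58 ± 0.19 (exact permutation p = 0.00547, adjusted 0.0547), a test that was added after the ratios had been seen. In MII oocytes the log2 ratio differed between July and May by -0.41 ± 0.12 (exact p = 0.0108, adjusted 0.0722) and in GV oocytes by 0.17 ± 0.14 (exact p = 0.277). Leaving out the 3 libraries moved the July change to -1.0, the May change to -0.47 and the MII season difference to -0.42, with exact p of 0.00216, 0.00794 and 0.013.

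**Figure D4:**
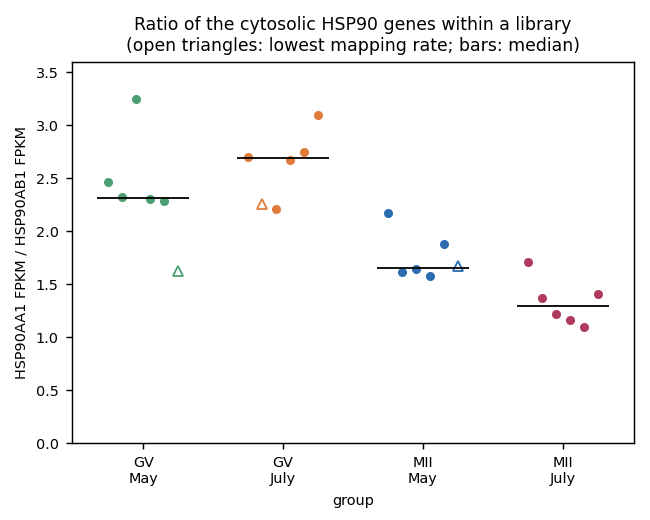
Ratio of HSP90AA1 FPKM to HSP90AB1 FPKM (vertical axis from 0) in each of the 24 libraries by group, with a bar at the median and open triangles for the 3 libraries of the lowest mapping rate. The 6 MII July ratios lie between 1.09 and 1.71, below the 6 GV July ratios at 2.21 to 3.1.

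The ratios of 3 other pairs were tested in the same way, HSPA1A to HSPA8, HSPD1 to HSPE1 and HSPA5 to HSPA9, and none of their 15 tests had an exact p under 0.05. HSPD1 and HSPE1 encode the mitochondrial chaperonin and its lid, which work as 1 complex and are transcribed from the shared stretch between them. HSPE1 stood 51.3-fold above HSPD1 in GV May, 61.7-fold in GV July, 45.1-fold in MII May and 46.9-fold in MII July (medians of the FPKM ratio within libraries). HSPE1 varied by at most 2.33-fold within a group, from 77.3 to 180 FPKM in GV May, 81.6 to 166 in GV July, 121 to 164 in MII May and 120 to 223 in MII July.

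HSPD1 had medians of 2.31, 2.20, 2.90 and 3.45 FPKM in GV May, GV July, MII May and MII July, and its highest value was 13.1, in replicate 6 of GV May. Neither gene passed in any comparison. The log2 difference of HSPE1 between MII and GV was 0.13 ± 0.24 in May and 0.42 ± 0.22 in July (limma adjusted p = 0.176), and that of HSPD1 was 0.07 ± 0.43 and 0.16 ± 0.38. Leaving out the 3 libraries gave 0.16 ± 0.24 and 0.31 ± 0.21 for HSPE1 and 0.22 ± 0.25 and 0.43 ± 0.31 for HSPD1. Between the seasons HSPE1 differed by -0.08 ± 0.27 in GV and 0.20 ± 0.17 in MII oocytes (0.11 ± 0.27 and 0.25 ± 0.18 without them), and HSPD1 by -0.05 ± 0.47 and 0.04 ± 0.34 (0.03 ± 0.27 and 0.24 ± 0.30 without them).

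HSPB1 encodes the small heat shock protein HSP27, which holds unfolded proteins without using ATP. Its level ran from 1.32 to 5.43 FPKM in GV May (median 1.85), 0.293 to 7.64 in GV July (2.14), 0.507 to 8.70 in MII May (5.79) and 0.831 to 14.8 in MII July (4.08). Unlike HSPA5 and the HSP90 genes, it was lowest in replicate 6 of GV May, replicate 2 of GV July, replicate 6 of MII May and replicate 6 of MII July, where it rested on 2, 3, 2 and 12 counting steps. MII differed from GV by 0.72 ± 0.45 in May (limma adjusted p = 0.247) and by 0.66 ± 0.55 in July (adjusted p = 0.387). Without the 3 libraries the May difference was 0.99 ± 0.32 and passed (adjusted p = 0.0288), and the July difference was 0.39 ± 0.54. The season difference was -0.05 ± 0.43 in GV and -0.11 ± 0.57 in MII oocytes (0.11 ± 0.41 and -0.49 ± 0.49 without them).

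**Figure D5:**
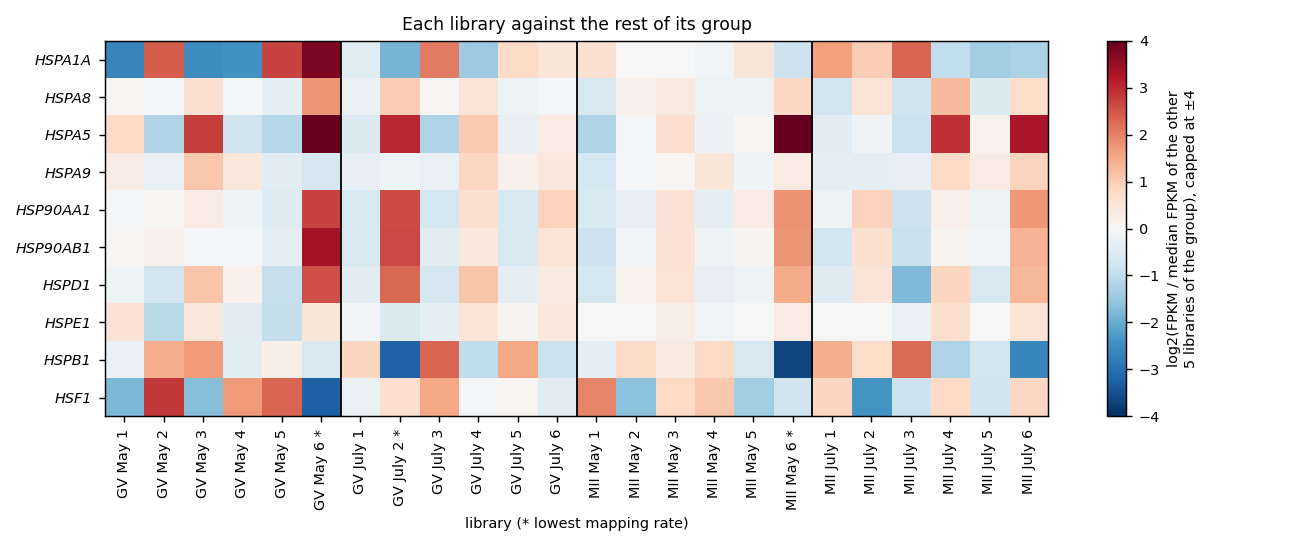
Log2 ratio of the FPKM of a library to the median FPKM of the other 5 libraries of its group, for the 10 heat shock genes (rows) and 24 libraries (columns), capped at 4 in either direction, with asterisks at the 3 libraries of the lowest mapping rate. Replicate 6 of GV May is over 4-fold above the median of the other 5 in 5 of the 10 genes, and HSF1, HSPB1 and HSPA9 are below each of the other 5 there.

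Each library was set against the median of the other 5 of its group, with 1 FPKM added to both values. On this measure replicate 6 of GV May was over 4-fold higher in HSPA1A, HSPA5, HSP90AA1, HSP90AB1 and HSPD1. These were 5 of the 10 genes, against 4.19% of all genes tested. Replicate 2 of GV July was over 4-fold higher in 3 of the 10, against 3.5% of all genes, and replicate 6 of MII May in 1, against 3%. Without the added 1 FPKM, HSPD1 was also over 4-fold higher in replicate 2 of GV July (4.91-fold). Some other chaperone genes were high in the same libraries. On the same measure, 7 of 20 genes of the unfolded protein response of the endoplasmic reticulum were over 4-fold higher in replicate 6 of GV May. Among them were DNAJB9 at 45.0 FPKM against a median of 0.0885 and PDIA3 at 16.7 against 0.603. The testis-enriched HSP70 gene HSPA2 was at 255 against 2.56 FPKM there, and DNAJB1, a J protein partner of HSP70, at 148 against 11.5. In that library 3 of 21 J proteins of the cytosol and 2 of 21 cofactors of HSP70 and HSP90 were over 4-fold higher. So were 1 of 8 other HSP70 and HSP110 genes and 1 of 2 other HSP90 genes. The counts were 0 of 15 mitochondrial chaperone and protease genes, 0 of 7 other small heat shock proteins and 0 of 3 heat shock factor genes. In replicate 2 of GV July and in replicate 6 of MII May, 4 of the same 20 unfolded protein response genes were over 4-fold higher on this measure. Of each other list, at most 2 genes were so there.

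The other genes of the chaperone system comprised 97 genes in 8 lists. None of them passed an adjusted p under 0.05 between July and May, the smallest unadjusted p being 0.0113 for DNAJC9 in GV oocytes (log2 difference 0.66 ± 0.22) and 0.0111 for DNAJB12 in MII oocytes (-0.29 ± 0.10), both genes of J proteins. Between MII and GV, 29 passed in May, 12 higher and 17 lower, and 28 passed in July, 8 higher and 20 lower. These are 29.9% and 28.9% of the 97, against 24.2% and 30.7% of all genes. In both months 5 of the same genes passed as higher and 16 as lower. The share of all genes passing in both months was not measured, so these counts were not shown to be particular to the chaperone system. Without the 3 libraries 44 passed in May and 41 in July, 45.4% and 42.3% of the 97 against 41.9% and 39.3% of all genes, so that the shares were near the background.

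Among the heat shock factors and their binding protein, HSBP1, which binds HSF1 trimers, fell by 1.88 ± 0.32 in May and by 1.94 ± 0.26 in July, from means of 39.1 and 38.1 FPKM to 9.47 and 8.81. HSF4 fell by 0.33 ± 0.10 in May (limma adjusted p = 0.0296), from a mean of 0.29 FPKM to 0.0144. Of the 21 J proteins of the cytosol, which hand clients to HSP70, 4 fell (DNAJA4, DNAJB1, DNAJC14 and DNAJC5) and 5 rose (DNAJB12, DNAJB14, DNAJB4, DNAJC7 and DNAJC9) in May. In July the same 4 and DNAJC18 fell and DNAJB14 rose. The median log2 difference of the 21 was 0.22 in May and 0.09 in July, against -0.03 and -0.02 over all genes. DNAJB1 fell by 2.06 ± 0.56 and 1.61 ± 0.44 and DNAJC5 by 0.59 ± 0.12 and 0.50 ± 0.10, while DNAJB14 rose by 0.20 ± 0.05 and 0.16 ± 0.04, in May and July. Their limma adjusted p values lay between 0.00205 and 0.0189.

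Of the 21 nucleotide exchange factors and cofactors of HSP70 and HSP90, 3 rose (AHSA1, CDC37L1 and ST13) and 4 fell (FKBP4, HSPBP1, STIP1 and UNC45A) in May, and in July the same genes except ST13 passed. Their median log2 difference was -0.02 in May and -0.21 in July. CDC37L1, a relative of the kinase cochaperone CDC37, rose by 1.01 ± 0.16 and 0.77 ± 0.14. STIP1, which links HSP70 to HSP90, fell by 1.17 ± 0.25 and 1.22 ± 0.19, and HSPBP1, an HSP70 binding protein, by 1.97 ± 0.57 and 2.61 ± 0.28.

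Of the 15 genes of the mitochondrial chaperone and protease system, CLPP, DNAJA3, DNAJC15, LONP1 and SPG7 fell in both months, and HSCB, PAM16 and TIMM44 rose in July, with a median over the list of -0.06 in May and 0.04 in July. LONP1, a matrix protease, fell by 0.52 ± 0.10 and 0.65 ± 0.14, DNAJC15 by 0.19 ± 0.05 and 0.14 ± 0.03, and DNAJA3, the mitochondrial J protein, by 0.38 ± 0.10 and 0.57 ± 0.15. Of the 20 genes of the unfolded protein response, DDIT3 rose in May and CALR fell in July, the median being -0.02 in both months, and XBP1, one of its transcription factors, fell by 1.44 ± 0.30 and 1.64 ± 0.31. Of the 8 other HSP70 and HSP110 genes, HSPA14 rose by 0.68 ± 0.22 and 0.90 ± 0.14, and HSPA4 fell by 0.87 ± 0.20 in July. Of the 7 other small heat shock protein genes, HSPB11 rose by 0.74 ± 0.16 and 0.89 ± 0.13, and HSPB9 fell by 1.37 ± 0.37 and 1.21 ± 0.31. Of the 2 other HSP90 genes, HSP90B1 of the endoplasmic reticulum rose in May by 1.63 ± 0.46 (limma adjusted p = 0.0225) and differed by 1.14 ± 0.42 in July (adjusted p = 0.0581), and TRAP1 of the mitochondria fell in July by 0.57 ± 0.14 (adjusted p = 0.00956). DNAJB14, DNAJC5, LONP1, DNAJC15, DNAJA3 and TRAP1 had group means under 1 FPKM, where the log2(FPKM + 1) scale understates a change. The genes of these lists named by month without a value, and HSF4, HSPA4, HSP90B1 and TRAP1, were named after their values had been seen.

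The genes whose log2(FPKM + 1) followed each heat shock gene most closely were sought among 3656 genes with a mean of at least 1 FPKM, by the lower of the Pearson r over the 12 GV and over the 12 MII libraries. Such an r is a description, since the libraries share their depth and the same libraries stand apart in many genes. HSPA5 was followed by RRM2 (0.97 in GV, 0.96 in MII) and KRT18 (0.96, 0.98). HSP90AB1 was followed by ATP6V1B2 (0.97, 0.98) and THOC3 (0.97, 0.96), and HSPA8 by the HSP110 gene HSPA4 (0.91, 0.92) and CPSF2 (0.92, 0.91). HSPE1 was followed by NDUFA6 (0.88, 0.90) and MRPL33 (0.87, 0.86), a subunit of respiratory complex I and a mitochondrial ribosomal protein. HSP90AA1 was followed by CDKL2 (0.92, 0.94) and FBXW7 (0.94, 0.91), and HSPD1 by PPIP5K2 (0.96, 0.97) and RAP1B (0.98, 0.96). Values were lower for HSPB1, followed by UBB (0.80, 0.90) and PDE6D (0.79, 0.76), for HSPA1A, followed by PRMT1 (0.81, 0.79) and DND1 (0.75, 0.86), and for HSPA9, followed by WDR26 (0.89, 0.74) and TTK (0.73, 0.73). HSF1, with a mean under 1 FPKM, was not compared.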

How the data were processed

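Libraries were made by Smart-seq2. The authors trimmed the read pairs, mapped them onto UMD3.1.1, a cattle genome build, using STAR 2.5.3a and deposited 1 FPKM value per gene and library. The FPKM of every library sum to 86768.1 or 86768.2 and none is below 0.01, from which a fixed total and an offset of 0.01 were inferred. Absolute depth is unknown. Relative depth was recovered from the steps between low values, and 99.8% of 26163 held-out values were whole multiples within 0.1. The 29 symbols listed more than once kept each entry.

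The heat shock genes and the related lists were chosen with earlier results of these data known. The 9526 genes over 0.1 FPKM in at least 1 library were tested on log2(FPKM + 1) by limma (version 3.58.1, R 4.3.3) using its variance trend, over the 12 libraries of each comparison or all 24 for interactions, with Benjamini-Hochberg adjustment over all genes. This step was first tested on simulated data. Single genes and ratios had two-sided exact permutation tests over samples, in Python 3.11.15 with scipy 1.17.1. All 10 heat shock genes are named. Of each related list, up to 3 genes with the smallest p among those passing in both months are given with values, together with the gene of smallest p in each season comparison and, for heat shock genes of at least 1 FPKM on average, up to 2 genes that followed them most closely. Alternatives were another pseudocount, filter, scaling, fit or calling rule, the replicate block, and leaving out libraries. No sequences were used here.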

Additional observations from a re-analysis of the deposited data

Results flagged for a closer look

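In 15 of 40 groups of 6 libraries, 1 for each gene and group, the highest library lay further from the nearest other than Dixon's test allows. The test was run on FPKM and flags about 1 in 20 groups only where values are normally distributed, which was not checked. The genes of a library are not independent of each other. The share of all genes so flagged was not measured, so the count was not shown to be particular to these genes. Of all genes tested, 41% to 52.8% were highest of their group in the 3 libraries of lowest mapping rate. Replicate 6 of GV May stood apart in HSPA5 (641 FPKM), HSP90AA1 (289 FPKM), HSPA8 (212 FPKM), HSP90AB1 (178 FPKM) and HSPD1 (13.1 FPKM). Replicate 2 of GV July stood apart in HSP90AA1 (375 FPKM), HSP90AB1 (166 FPKM), HSPA5 (63.4 FPKM) and HSPD1 (9.45 FPKM). Replicate 6 of MII May stood apart in HSP90AA1 (303 FPKM), HSP90AB1 (181 FPKM), HSPA5 (100.2 FPKM) and HSPD1 (7.78 FPKM). These 3 libraries had the lowest mapping rate and the lowest relative depth, and their part in these values was not tested. Replicate 3 of GV July stood apart in HSPA1A (53.4 FPKM) and HSF1 (2.65 FPKM), at a relative depth of 2.19.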

How the results depend on the processing

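Of 1205 log2 differences of the 10 genes under alternatives, 1172 kept their side of the adjusted threshold, 33 passed where the reported fit did not, 0 were lost and 0 passed in the other direction; 117 differences that did not pass changed sign. No season or interaction result crossed the adjusted threshold. In MII against GV oocytes of May, 0 of the 10 genes passed in the reported fit. There 1 passed with a pseudocount of 0.1, with quantile normalization and with all 4 groups in one fit, and 2 with median-of-ratios scaling. Under the study's calling rule, with its fold change taken on log2(FPKM + 1), 2 were called. Without the 3, and without the 5, libraries of lowest mapping rate 5 passed. With 1 library left out the count ran from 0 to 3, with 3 without replicate 6 of GV May and 1 without replicate 1 or 3 of GV May or replicate 6 of MII May. In July, where 2 passed, 1 passed with a mean of at least 1 FPKM (HSF1 is below it) and 1 under the study's rule taken in the same way. With a pseudocount of 0.1 that rule called 3 in May and 2 in July. In July 3 passed with all 4 groups in one fit, 4 without the 3 and 4 without the 5 libraries. With 1 library left out the July count ran from 2 to 4, the latter without replicate 2 of GV July. Of the 97 related genes, 44 passed in May without the 3 or the 5 libraries in place of 29, and in July 46 without the 5 in place of 28. Unless stated, the cause was not tested. The alternative without the 5 libraries and those of the related genes and of the ratio interaction were chosen after seeing the data.

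With the replicate block, 3 of the 10 genes passed in May (HSPA8, HSP90AA1 and HSP90AB1) and 3 in July, and the May change of the ratio of HSP90AA1 to HSP90AB1 had an exact p of 0.0625. Same-numbered libraries did not deviate together in every pair (r from -0.441 to 0.764), and a sample did not always correlate best with its own number, so the numbers were not taken as pairs. Of the 16 ratio comparisons of 2 groups, 3 had an exact p under 0.05 with all libraries. The season difference of the HSP90 ratio in GV oocytes had an exact p of 0.0411 without replicate 3 of GV May, and the July change of the ratio of HSPA5 to HSPA9 one of 0.0159 without the 5 libraries. Absolute counts are unknown, and values of HSF1 and HSPB1 resting on 2 counting steps are imprecise, as is the value of HSPA9 resting on 5.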
